A study of Mus musculus with 12 samples.

Results

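The corticosteroid receptors and a set of genes known to respond to glucocorticoids were examined in prefrontal cortex of mice given cocaine or saline in adolescence. The 10 genes, of 28842 in the deposited table, were taken by name and not by a rule on their measured values. Earlier results of these data were known when they were chosen. They are the receptors Nr3c1 and Nr3c2 and the targets Fkbp5, Sgk1, Tsc22d3, Zbtb16, Hif3a, Plin4, Pdk4 and Ddit4. All 10 were found. The study, whose title concerns DUSP1 in medial prefrontal cortex and later sensitivity to the drug, sequenced RNA from male C57BL/6J mice whose genotype label reads wild type. The cocaine group of 6 libraries came from mice injected with 15 mg/kg cocaine between postnatal days 28 and 42, and the saline group of 6 libraries from mice injected with saline over the same days. As adults all mice went through place preference, with a pre-test on day 75, training on days 76 and 77 preceded by 1 mg/kg cocaine in both groups, and a final test on day 78. In conditioned place preference, an animal learns to associate a compartment with a drug, and brains were collected within 30 to 60 min of the final test.

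Corticosterone, the main glucocorticoid of mice, enters cells and binds 2 related nuclear receptors that act as transcription factors. The mineralocorticoid receptor has the higher affinity for the hormone, and the glucocorticoid receptor is more fully engaged when the hormone rises with stress or with the daily rhythm. The bound receptor acts at short DNA elements near its target genes, many of which are induced in several brain cell types at once, glia and blood vessels included.

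Recovered read totals were 16.9 to 18.8 M in cocaine libraries and 16.7 to 19.9 M in saline libraries. Whether every library is a mouse of its own is not stated in the labels, and the tests therefore rest on variation between libraries, which may be technical. Some label fields name a mesenchymal stem cell line, C3H 10T1/2, and a time tag of day 0 or 5 that alternates with the library number, and these were not used to form groups. Slc17a7, the glutamate transporter of cortical excitatory neurons, stood at 300 to 422 FPKM (reads scaled to gene length and library total) in cocaine libraries and 321 to 402 FPKM in saline libraries. The mesenchymal factors Twist1 and Prrx1 stayed under 1 FPKM, with a maximum of 0.488 and 0.512 in cocaine libraries and 0.47 and 0.616 in saline libraries. The fibroblast markers Col1a1 and Col1a2 reached 1.08 and 1.52 FPKM in cocaine libraries and 0.912 and 1.25 in saline libraries. A library of the saline group, number 5, held 12015 normalised reads of choroid plexus and ependymal markers, against 82 to 482 in the other 11. Gapdh, a glycolytic enzyme often used as a reference gene and singled out here after its values were seen, split the libraries across the labels. It had 1210.3 to 5763 normalised reads in cocaine libraries 1 to 5 and saline library 6, and 115 to 211 in cocaine library 6 and saline libraries 1 to 5. Only 9 other tested genes separated the same 6 libraries from the other 6, and by at most 0.09 on the log2 scale against 2.52 for Gapdh. The split thus follows the group labels except in the libraries numbered 6. Its cause was not tested, nor was whether these libraries carry each other's labels, which would alter every group difference given here. Dusp1, the gene of the study's title, had 969 normalised reads in cocaine library 6 and 465 in saline library 6, each within the range of the other libraries of its label. Since Dusp1 is the title gene and differs between these same labels, its values cannot decide whether they were exchanged. The labels were kept as given, and the group differences, the receptor balance and the number of correlated pairs are also given without both of these libraries.

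Adolescent cocaine was not accompanied by a detectable change in any of the 10 genes. Differences between the groups were small next to the spread between libraries: by limma on log2(value + 1), 5 genes were higher and 5 lower in cocaine libraries, with log2 differences between -0.21 (Fkbp5) and 0.22 (Pdk4) and a median of -0.00, against 0.00 over all tested genes. In that fit, 0 of 10 passed an adjusted p of 0.05, where the share of all 16067 tested genes that passed was 0 percent. At an unadjusted p under 0.05 there were 0 of 10, against 1.49 percent (240 genes) of all tested. The groups overlapped in all 10 genes, and did not overlap in 0.0871 percent (14 genes) of all tested. edgeR called 0 of 10 and 0 percent of all genes. DESeq2 called 0 of 10 and 0.0187 percent, namely the 3 immediate-early response genes Nr4a1, Arc and Dusp1. In the authors' deposited table the adjusted p was 1 for each of the 10 genes, and the unadjusted p ran from 0.0612 for Fkbp5 to 0.963 for Nr3c1. The log2 fold changes of the authors' deposited table were larger for some variable genes, at -0.69 for Plin4, -0.20 for Zbtb16 and 0.16 for Sgk1, against limma estimates of -0.20, -0.10 and 0.02. With both libraries numbered 6 left out, 0 of 10 passed by limma. The differences of Nr3c1, Hif3a and Plin4 then changed sign to -0.10, 0.07 and 0.14. Those of Sgk1 and Ddit4 became 0.34 and 0.33, of Pdk4 0.30, of Tsc22d3 0.24, of Zbtb16 -0.37, of Nr3c2 -0.15 and of Fkbp5 -0.14.

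**Figure D1:**
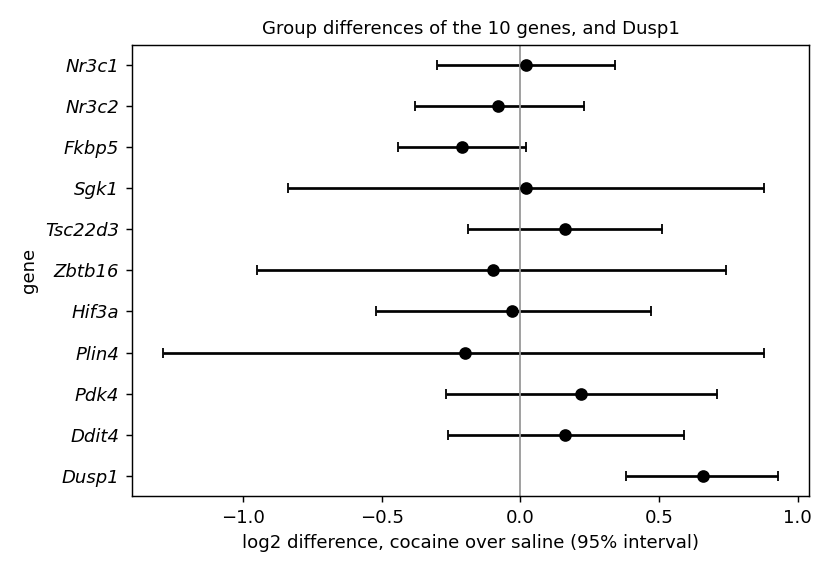
Log2 difference of cocaine over saline (horizontal axis) for the 10 genes and Dusp1 (vertical axis); points are limma estimates and bars their 95% intervals, from 6 libraries per group. The intervals of all 10 genes include 0, the narrowest being that of Fkbp5 (-0.44 to 0.02), while that of Dusp1 runs from 0.38 to 0.93.

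Dusp1, a phosphatase that switches off MAP kinases, is the gene in the study's title and is also known to be induced by glucocorticoids. It averaged 834 ± 143 normalised reads in cocaine libraries and 528 ± 80.4 in saline libraries (SD, n = 6 each), with no overlap. Its log2 difference was 0.66 ± 0.13 (SE). In the authors' deposited table its adjusted p was 0.0188. Its adjusted p was 1 by limma and 0.0104 by DESeq2, and an exact two-sided permutation test gave 0.00216, the smallest p that 6 libraries per group allow. The limma estimates of the 10 genes were all smaller than this, although the intervals of Sgk1, Zbtb16, Plin4 and Pdk4 are wide enough to hold it, and Plin4 stood at -0.69 in the authors' deposited table.

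Of the receptors, Nr3c1 (ENSMUSG00000024431, chromosome 18) encodes the glucocorticoid receptor. Its normalised reads ran from 1383 over a median of 1918 to 2206 in cocaine libraries, and from 1284 over a median of 1836 to 2240.3 in saline libraries. The groups covered almost the same range, with cocaine library 1 and saline library 6 lowest. The log2 difference was 0.02 ± 0.15 (SE, 95% interval -0.30 to 0.34, limma adjusted p = 1).

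Nr3c2 (ENSMUSG00000031618, chr8:76899442-77245012, GRCm38, plus strand) encodes the mineralocorticoid receptor. It had 424, 611 and 715 normalised reads as the lowest, median and highest cocaine values, against 472, 615 and 702 in saline libraries. Cocaine libraries 1 and 5 were lowest and cocaine library 3 highest, on both sides of the saline range. The difference was -0.08 ± 0.14 on the log2 scale (SE, 95% interval -0.38 to 0.23, limma adjusted p = 1). The gene shares 247 of its 6474 exon bases with Gm10649, a noncoding gene on the other strand, and the strand setting of the counting is not given in the sources used here, so those reads cannot be assigned.

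The balance of the receptors, Nr3c2 over Nr3c1 per length, was 0.316 to 0.435 in cocaine libraries and 0.313 to 0.55 in saline libraries. On the log2 scale it averaged -1.47 ± 0.16 in cocaine libraries and -1.37 ± 0.30 in saline libraries (SD, n = 6 each), a difference of -0.09 (exact two-sided permutation p = 0.543). The highest ratio belonged to saline library 5, the one with choroid plexus markers, and without it the difference was 0.01 (exact permutation p = 0.946). It was -0.05 without both libraries numbered 6 (exact permutation p = 0.81).

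Fkbp5 (ENSMUSG00000024222, chr17:28399094-28517527, minus strand) encodes a co-chaperone that lowers the receptor's affinity for hormone and is itself induced by it, closing a short feedback loop. Its values were 379, 445 and 496 normalised reads at the lowest, median and highest in cocaine libraries, and 422, 508 and 628 in saline libraries. Saline libraries 6, 3 and 1 lay above every cocaine library, and the other 3 saline libraries lay among them. The difference of -0.21 ± 0.11 (SE, log2, 95% interval -0.44 to 0.02) was the nearest of the 10 to the threshold, with an unadjusted limma p of 0.0728, an adjusted p of 1 and an exact two-sided permutation p of 0.0909. Fkbp5 was also the steadiest of the 10 genes: its SD within groups was 0.19 on the log2 scale, and 29.5 percent of tested genes varied less.

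Sgk1 (ENSMUSG00000019970, chr10:21882184-21999903, plus strand) encodes the serum and glucocorticoid regulated kinase, which acts on ion channels and transporters. The RefSeq promoter table for GRCm38.p6 was searched for the palindromic element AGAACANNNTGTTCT, for its core ACANNNTGT and for its single arm AGAACA or TGTTCT on both strands; the core lies within the full element, and so do 2 arms. Each window covers 250 bases before to 50 after a start site. The full element was present in 3 of 32851 windows (0.00913 percent), and 1 of these was an Sgk1 window, at chr10:21993640-21993939 on the plus strand of the gene. It is shown for that element, which begins at position -189 from the start site. Capitals mark the element and a further single arm at position -242:
Sgk1: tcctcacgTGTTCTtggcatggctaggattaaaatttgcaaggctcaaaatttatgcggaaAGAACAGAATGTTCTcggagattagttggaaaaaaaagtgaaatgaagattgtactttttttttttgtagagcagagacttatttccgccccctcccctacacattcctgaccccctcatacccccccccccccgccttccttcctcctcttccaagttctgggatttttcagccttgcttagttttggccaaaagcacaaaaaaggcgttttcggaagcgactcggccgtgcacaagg

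The core was present in 6.85 percent of windows and the single arm in 19 percent. Among 15 windows of 8 of the 10 genes, the core was found in 2, both of Sgk1, and the arm in 4, of which 3 were of Sgk1 and 1 of Tsc22d3. The windows of Fkbp5, Hif3a, Plin4, Pdk4, Ddit4 and Nr3c2 held none of these letters. Nr3c1 and Zbtb16 had no window to search. Sgk1 and Tsc22d3 had several windows each, and the other genes 1 each. Tsc22d3 is shown beside Sgk1 as the only other one of the 8 searched genes with a match. Its window is chrX:140600473-140600772 on the minus strand, with the arm at position -185 in capitals:
Tsc22d3: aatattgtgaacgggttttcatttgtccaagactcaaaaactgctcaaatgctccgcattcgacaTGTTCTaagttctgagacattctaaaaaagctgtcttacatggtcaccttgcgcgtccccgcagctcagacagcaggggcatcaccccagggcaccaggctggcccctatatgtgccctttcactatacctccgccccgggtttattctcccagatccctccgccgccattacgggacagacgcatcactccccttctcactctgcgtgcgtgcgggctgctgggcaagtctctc
The Tsc22d3 window shown has 0 GENCODE M21 transcripts of the gene beginning within 50 bases of its start site. These matches describe letters in short windows only, and binding was not measured.

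Sgk1 had 1096, 1650.5 and 5089 normalised reads as the lowest, median and highest cocaine values, and 1086, 1978 and 3535 in saline libraries. Cocaine libraries 4 and 3 and saline libraries 6 and 1 were high, and cocaine libraries 5 and 6 and saline library 4 low, so each group held both ends. The log2 difference was 0.02 ± 0.40 (SE, 95% interval -0.84 to 0.88, limma adjusted p = 1), and the exact two-sided permutation p was 0.95.

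Tsc22d3 (ENSMUSG00000031431, chrX:140539528-140600659, minus strand) encodes GILZ, a leucine zipper protein that carries part of the anti-inflammatory action of glucocorticoids. It had 1199, 1374 and 1856 normalised reads as lowest, median and highest in cocaine libraries, against 916, 1376 and 1828 in saline libraries. Cocaine libraries 3 and 4 and saline library 1 were highest, and the medians were nearly equal. The difference was 0.16 ± 0.16 (SE, log2, 95% interval -0.19 to 0.51, limma adjusted p = 1). It was 0.05 without saline library 4.

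Zbtb16 (ENSMUSG00000066687, chr9:48654297-48836222, minus strand) encodes PLZF, a zinc finger repressor. Its normalised reads were 281, 406 and 741 at the lowest, median and highest in cocaine libraries, against 149, 628 and 789 in saline libraries. Here the order of libraries was another one: saline libraries 2, 3 and 4 and cocaine libraries 2 and 6 were high, and saline library 5 lowest. The difference was -0.10 ± 0.39 (SE, log2, 95% interval -0.95 to 0.74, limma adjusted p = 1).

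Hif3a (ENSMUSG00000004328, chr7:17031507-17062427, minus strand) encodes an alpha subunit of the hypoxia-inducible factor family. It was a low gene, with 50.7, 73.3 and 108 normalised reads in cocaine libraries and 51.6, 72 and 108 in saline libraries as lowest, median and highest. The groups spanned the same range, and the difference was -0.03 ± 0.23 (SE, log2, 95% interval -0.52 to 0.47, limma adjusted p = 1).

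Plin4 (ENSMUSG00000002831, chr17:56100591-56109803, minus strand) encodes perilipin 4, a coat protein of lipid droplets. It had 39.7, 50.8 and 91.9 normalised reads as lowest, median and highest in cocaine libraries, against 19.1, 58.5 and 195 in saline libraries. Saline libraries 1 and 6, at 195 and 188, stood far above the rest, and the highest library held 10.2 times the lowest. The difference was -0.20 ± 0.51 (SE, log2, 95% interval -1.29 to 0.88, limma adjusted p = 1), and it was 0.12 without saline library 1 and 0.11 without saline library 6. Plin4 shares 17 of its 5777 exon bases with Hdgfl2 on the other strand.

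Pdk4 (ENSMUSG00000019577, chr6:5483351-5496309, minus strand) encodes a kinase that shuts down pyruvate dehydrogenase and so spares glucose. Its normalised reads were 107, 144 and 259 at the lowest, median and highest in cocaine libraries, against 79.6, 143 and 179 in saline libraries. Cocaine library 4 was highest and saline library 4 lowest, and the medians were nearly equal. The difference was 0.22 ± 0.23 (SE, log2, 95% interval -0.27 to 0.71, limma adjusted p = 1), and it was 0.07 without cocaine library 4 and 0.08 without saline library 4.

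Ddit4 (ENSMUSG00000020108, chr10:59949669-59951834, minus strand) encodes REDD1, which restrains the growth kinase complex mTORC1. It had 671, 767 and 1464 normalised reads as lowest, median and highest in cocaine libraries, and 500.1, 712 and 1082 in saline libraries. Cocaine library 4 stood apart from the other cocaine libraries, which reached 808 at most. The difference was 0.16 ± 0.20 (SE, log2, 95% interval -0.26 to 0.59, limma adjusted p = 1), and it was 0.00 without cocaine library 4 and 0.05 without saline library 4.

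**Figure D2:**
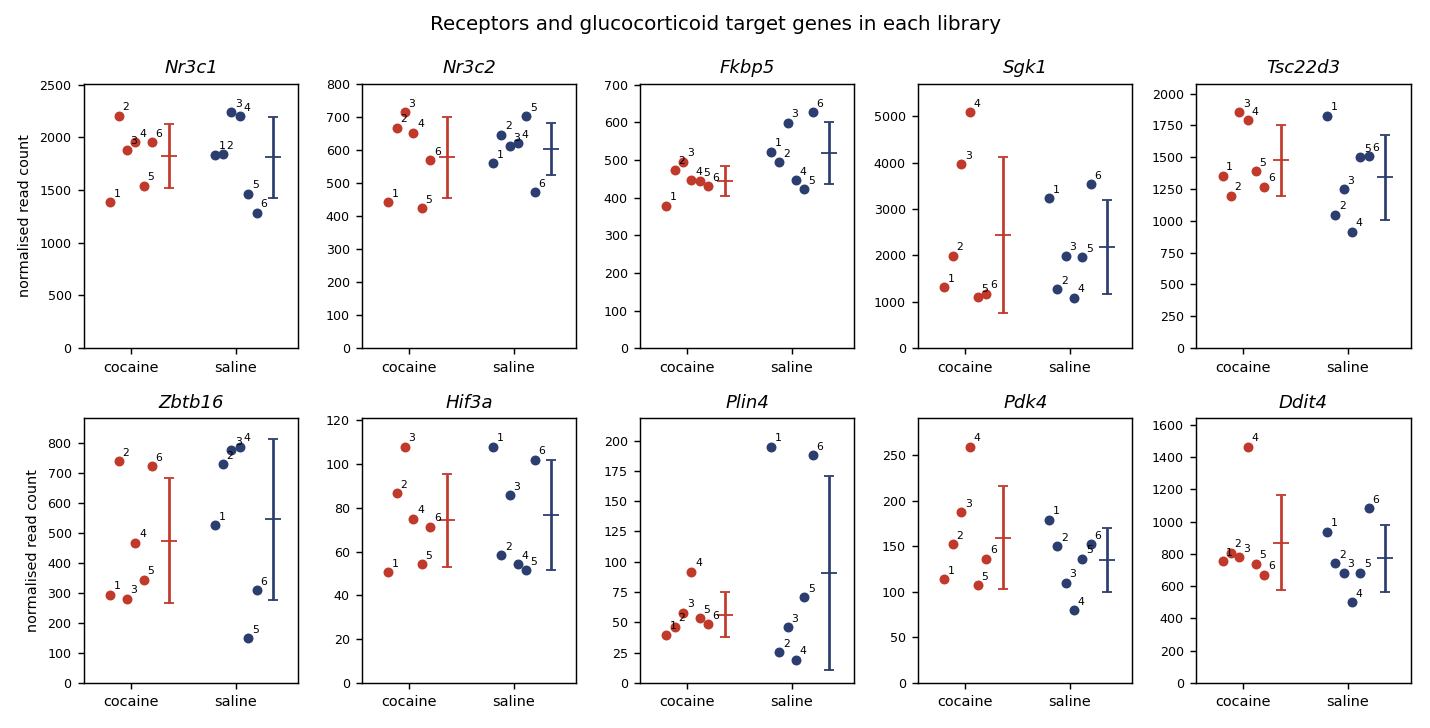
Normalised reads (vertical axis, from 0) of each of the 10 genes in each library, cocaine left and saline right; points are libraries, numbered, and the bars give the group mean ± SD (n = 6 each). The groups overlap in every panel, and cocaine libraries 3 and 4 and saline libraries 1 and 6 recur at the top for Sgk1 and Tsc22d3.

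The time tag in the labels changed no call among the 10 genes, but it turned several directions. Among libraries tagged day 0 the log2 difference of Sgk1 was -0.38 and of Plin4 -0.78, and among those tagged day 5 they were 0.43 and 0.37. Nr3c1 stood at -0.20 and 0.23, Nr3c2 at -0.28 and 0.13, Zbtb16 at -0.37 and 0.16, Hif3a at -0.23 and 0.17, Pdk4 at -0.08 and 0.52, and Ddit4 at -0.00 and 0.33, day 0 before day 5. Fkbp5 was at -0.22 and -0.20 under the tags, and Tsc22d3 was at 0.01 and 0.30. Each tag holds 3 libraries per group, and the differences between tags were not tested.

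On the scale of reads per length, the 10 genes spanned from Sgk1 at a mean of 26.9 FPKM over 12 libraries to Hif3a at 0.64 FPKM. Ddit4 followed Sgk1 at 26.7, then came Tsc22d3 at 18.5, Nr3c1 at 13.8, Zbtb16 at 5.45, Nr3c2 at 5.17, Fkbp5 at 2.89, Pdk4 at 2.38 and Plin4 at 0.733 FPKM. Some neighbours were not separated: Sgk1 exceeded Ddit4 in 6 of 12 libraries, Zbtb16 exceeded Nr3c2 in 6, and Plin4 exceeded Hif3a in 5. Ddit4 exceeded Tsc22d3, Nr3c1 exceeded Zbtb16, Nr3c2 exceeded Fkbp5 and Pdk4 exceeded Plin4 in 12 of 12.

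The variation between libraries was the larger feature of these genes. Plin4 (10.2-fold between the highest and the lowest library), Zbtb16 (5.3-fold) and Sgk1 (4.69-fold) varied most, and their SDs within groups, 1.03, 0.81 and 0.83 on the log2 scale, exceeded those of 98.6, 96.6 and 96.8 percent of tested genes. Nr3c1, Nr3c2 and Fkbp5 ranged by 1.74, 1.69 and 1.66-fold. In bulk tissue, fewer cells of a type and less RNA per cell cannot be told apart.

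**Figure D3:**
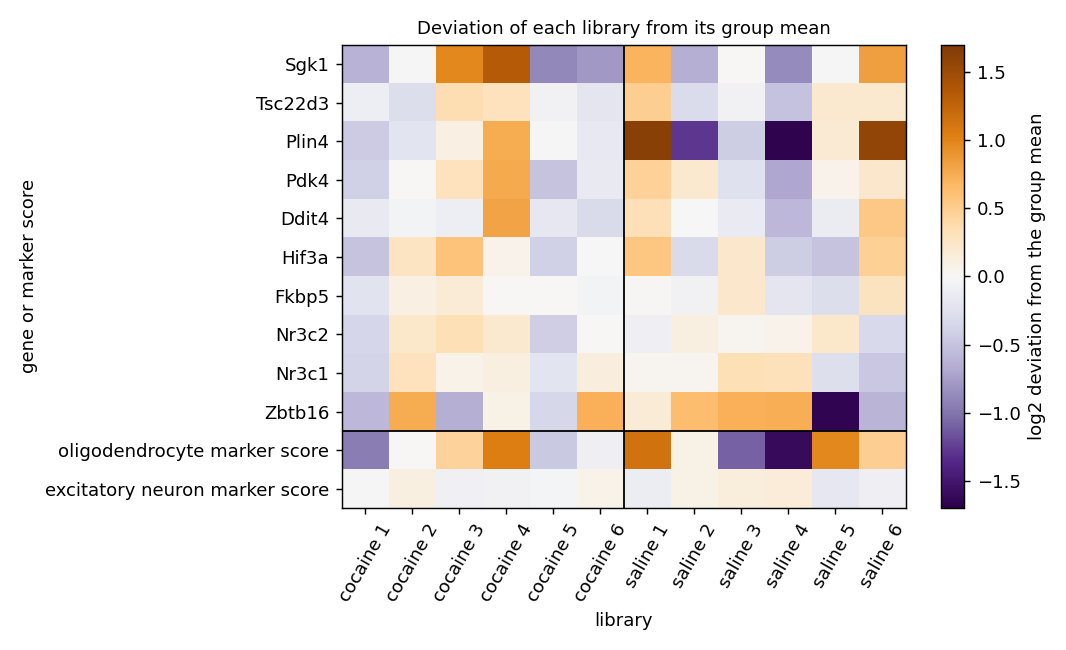
Deviation of each library from its group mean on the log2 scale (colour) for the 10 genes (rows) over 12 libraries (columns, cocaine left, saline right). Below the genes are rows for the oligodendrocyte and excitatory neuron marker scores. Sgk1, Tsc22d3, Hif3a, Plin4, Pdk4 and Ddit4 tend to be high in cocaine libraries 3 and 4 and in saline libraries 1 and 6. Exceptions are Ddit4 in cocaine library 3, below its group mean, and Hif3a in cocaine library 4, close to it. Nr3c1 and Zbtb16 follow another order.

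Much of this variation was shared. The share of correlated pairs among all tested genes was not computed, so the counts below cannot be called particular to these genes. The leading component of all tested genes held 39.5 percent of their variance within groups. After subtraction of group means, 12 of the 45 pairs of genes correlated at an adjusted permutation p under 0.05 (100000 resamples within groups, Benjamini-Hochberg over 45 pairs), and 32 of 45 coefficients were positive. These counts are by Pearson r, and some of the 12 did not pass by Spearman rho. They were Sgk1 with Hif3a and with Plin4 (adjusted permutation p = 0.138 and 0.0649), Tsc22d3 with Pdk4 (0.0686) and Plin4 with Ddit4 (0.141). Over the 28 pairs of the 8 targets the median Pearson r was 0.58, with 11 pairs past the threshold. The 15 pairs among Sgk1, Tsc22d3, Hif3a, Plin4, Pdk4 and Ddit4, a set grouped after the values were seen, all had positive r, from 0.48 to 0.86. The number of pairs past the threshold fell to 3 without saline library 4, to 5 without cocaine library 4, to 7 without cocaine library 1 and to 7 without both libraries numbered 6.

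Sgk1 and Pdk4 gave r = 0.85 (permutation p = 0.00134, adjusted p = 0.0115, rho = 0.83 with permutation p = 0.00343), with 0.95 within cocaine libraries and 0.69 within saline libraries. Without the 2 libraries farthest from the median of Sgk1, r was 0.75, and it was 0.93 and 0.80 within the day 0 and day 5 tags. For Sgk1 and Tsc22d3, r was 0.82 (permutation p = 0.00154, adjusted p = 0.0115, rho = 0.80 with permutation p = 0.00315), 0.82 within cocaine and 0.91 within saline libraries, 0.77 without the 2 farthest, and 0.85 and 0.92 within the tags. Both pairs thus kept their sign in every subset examined.

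Tsc22d3 and Plin4 had the highest coefficient, r = 0.86 (permutation p = 0.00059, adjusted p = 0.00885, rho = 0.87 with permutation p = 0.00054), at 0.72 without the 2 farthest. Pdk4 and Ddit4, both regulators of energy use, had r = 0.84 (permutation p = 0.00141, adjusted p = 0.0115, rho = 0.89 with permutation p = 0.0004), at 0.63 without the 2 farthest. Fkbp5 paired with Hif3a, at r = 0.83 (permutation p = 0.00307, adjusted p = 0.0173, rho = 0.88 with permutation p = 0.00092), at 0.77 without the 2 farthest; its r with Sgk1 was 0.53 (adjusted permutation p = 0.184).

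The receptors showed no pooled correlation with Sgk1 that passed, and the sign differed between subsets. Nr3c1 had r = -0.04 with Sgk1 (adjusted permutation p = 0.946), made up of 0.47 within cocaine and -0.60 within saline libraries, and of 0.51 and -0.65 within the day 0 and day 5 tags. Nr3c2 had r = 0.32 with Sgk1 (adjusted permutation p = 0.582), made up of 0.77 within cocaine and -0.69 within saline libraries, and of 0.75 and -0.33 within the tags. With Hif3a, Nr3c2 had 0.95 within cocaine and -0.81 within saline libraries. These differences between subsets were not tested. Nr3c1 had r = 0.79 with Zbtb16 (permutation p = 0.0066, adjusted p = 0.033, rho = 0.80 with permutation p = 0.00567), at 0.82 without the 2 farthest and 0.74 and 0.90 within the tags. Nr3c1 and Nr3c2 gave r = 0.61 (adjusted permutation p = 0.1), which was 0.29 without the 2 farthest. Zbtb16 and Tsc22d3 gave a negative coefficient, r = -0.57, that did not pass (adjusted permutation p = 0.205).

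**Figure D4:**
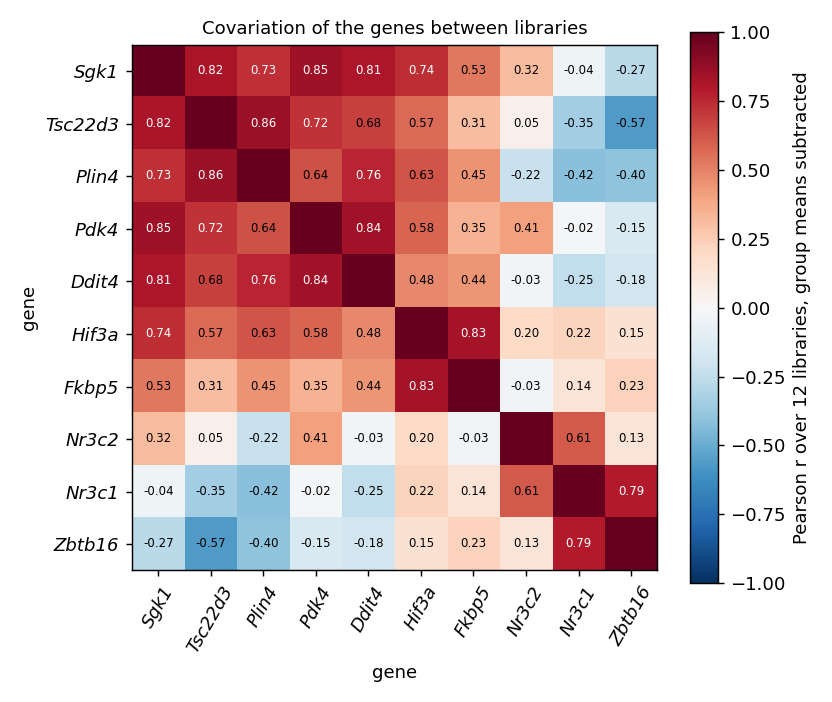
Pearson r between the 10 genes (both axes) over 12 libraries after subtraction of group means, in colour with the value in each cell. The coefficients among Sgk1, Tsc22d3, Hif3a, Plin4, Pdk4 and Ddit4 are all positive (0.48 to 0.86), and Nr3c1 and Zbtb16 correlate with each other at 0.79.

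Cell type markers moved with some of these genes. All 12 oligodendrocyte markers were lower on average in cocaine libraries with a median log2 difference of -0.19, and 0 of 12 passed the test. Of all 16067 tested genes, 7784 were lower. The 12 need not be independent of each other. Their mean score was -0.09 in cocaine libraries, with an SD of 0.70, and 0.09 in saline libraries, with a larger SD. Other marker sets were as one-sided: 6 of 6 choroid and ependymal markers were lower (median -0.71), and 5 of 5 red blood cell markers higher (0.47). The summed normalised reads of the oligodendrocyte markers ran from 51804 to 205471 in cocaine libraries and from 35114 to 249319 in saline libraries. The mean marker score correlated with Pdk4 at r = 0.88 (permutation p = 0.00014, adjusted p = 0.0048 over 120 relations, rho = 0.92 with permutation p = 8.00e-05), at 0.85 without the 2 farthest. Its r with Tsc22d3, Plin4, Ddit4 and Sgk1 was 0.78, 0.74, 0.71 and 0.70, with adjusted permutation p of 0.0881, 0.185, 0.101 and 0.0881. With Hif3a it was 0.43 (adjusted permutation p = 0.436). The next highest coefficients of Pdk4 were 0.77 with the astrocyte score, and 0.72 each with the striatal and the choroid and ependymal scores. Their adjusted permutation p was 0.0872, 0.0872 and 0.0989. With the oligodendrocyte score regressed out, 0 of 45 pairs passed the threshold, and the median r over the 28 pairs of targets was 0.47.

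Nr3c1 and Zbtb16 moved with other library features. Nr3c1 correlated with the score of 10 endothelial markers at r = 0.93 (permutation p = 7.00e-05, adjusted p = 0.0042, rho = 0.88 with permutation p = 0.00056), at 0.88 without the 2 farthest. Zbtb16 correlated with 10 excitatory neuron markers at r = 0.86 (permutation p = 0.00079, adjusted p = 0.0158, rho = 0.83 with permutation p = 0.00053), at 0.83 without the 2 farthest, and with the share of mitochondrial reads at r = -0.82 (permutation p = 3.00e-05, adjusted p = 0.0036, rho = -0.80 with permutation p = 0.00595), at -0.76 without the 2 farthest. Tsc22d3 went the other way from the neuronal markers, at r = -0.85 (permutation p = 0.00284, adjusted p = 0.0487, rho = -0.80 with permutation p = 0.00411), at -0.86 without the 2 farthest. By rho, Tsc22d3 with the neuronal markers and Zbtb16 with the mitochondrial share did not pass (adjusted permutation p = 0.0616 and 0.0653). Nr3c1 with the endothelial and Zbtb16 with the neuronal markers did (0.0134 each). The leading component of all tested genes, which held 39.5 percent of their variance within groups, correlated with Zbtb16 at r = 0.92 (adjusted permutation p = 0.0048) and with Nr3c1 at r = 0.90 (adjusted permutation p = 0.011). Gene length differed between genes like and unlike Nr3c1: the 858 genes with r above 0.9 to Nr3c1 had a median length of 7956 bases, the 533 below -0.9 had 1984 bases, and all tested genes 4138 bases. The part of cell makeup, RNA quality and gene length in these relations was not tested.

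For each of the 10 genes, the 3 named genes with the most similar values over the 12 libraries were listed, with r after subtraction of group means as the measure. Sgk1 was nearest to Ada, adenosine deaminase, and Nfkbia, the NF-kappaB inhibitor, at 0.96 each, and to Txnip, a thioredoxin inhibitor, at 0.95. Ddit4 was nearest to Klf15, a transcription factor known as a glucocorticoid target, at 0.97, then Cebpd at 0.91 and Nfkbia at 0.90. Pdk4 was nearest to Lgi3 at 0.95 and to Padi2 and Kank1 at 0.94 each.

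Tsc22d3 was nearest to F3, tissue factor, and P2rx7, an ATP-gated channel, at 0.95 each, and to Pmp22 at 0.93. Plin4 was nearest to Galc, a myelin lipid hydrolase, and Etnppl at 0.92 each, and to Zcchc9 at 0.91. Hif3a was nearest to P2ry1, Ptp4a1 and Fzd2 at 0.87 each, and Fkbp5 to Clpx and Zfp953 at 0.84 each and Zfp748 at 0.82. Nr3c2 was nearest to Tgfbr1 at 0.95, Fam210b at 0.94 and Npffr1 at 0.93. Nr3c1 was nearest to Sos1 at 0.99 and to Rmnd5a and Kdm7a at 0.98 each, and Zbtb16 to Wdr48, Dgkq and Kalrn at 0.99 each. Such coefficients were common for Nr3c1 and Zbtb16, with 858 and 619 genes above 0.9, against 8 for Sgk1 and 7 for Plin4. Each count includes the gene itself. The 619 had a median length of 6912 bases, and the 266 genes below -0.9 to Zbtb16 had 2327 bases.

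Another 24 genes known to respond to glucocorticoids were listed, of which 23 were tested. In cocaine libraries 15 were higher and 8 lower, with a median log2 difference of 0.03; 0 passed the adjusted threshold and 1, Dusp1, had an unadjusted p under 0.05, against 1.49 percent of all tested genes. Arl4d, a small GTPase, averaged 548 ± 142 normalised reads in cocaine libraries and 398 ± 145 in saline libraries (SD, n = 6 each), a log2 difference of 0.52 ± 0.25 (SE, limma adjusted p = 1). Mfsd2a, the lipid transporter of the blood-brain barrier, differed by 0.12 ± 0.10.

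Set against Sgk1, used as the anchor after its values were seen, 18 of these 23 genes had a positive r and their median was 0.50, beside 47.5 percent positive and a median of -0.02 over all tested genes. As anchors, Plin4, Tsc22d3 and Ddit4 had 16, 17 and 17 of 23 positive, with medians of 0.57, 0.53 and 0.45. Pdk4 and Hif3a had 18 and 17 positive, with medians of 0.39 and 0.31. For Fkbp5 19 were positive with a median of 0.25. Nr3c1 differed, with 8 of 23 positive and a median of -0.26, and so did Zbtb16 with 9 and a median of -0.37. Nr3c2, with 10 positive and a median of -0.03, stood near all tested genes, at 49.3 percent and -0.01. The share of all tested genes with a positive r was 51.9, 51.4 and 49.9 percent for Plin4, Tsc22d3 and Ddit4. It was 44.4, 50.7 and 50.5 percent for Pdk4, Hif3a and Fkbp5, and 48.9 and 48.8 percent for Nr3c1 and Zbtb16. With Sgk1, Nfkbia (0.96), Arrdc2 (0.91), Cebpd (0.84) and Gjb6 (0.74) were highest. Bcl6 (-0.02), Per1 (-0.17), Cdkn1a (-0.31), Cebpb (-0.40) and Dusp1 (-0.46) were negative. Dusp1, whose groups did not overlap, thus had the lowest coefficient with Sgk1.

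**Figure D5:**
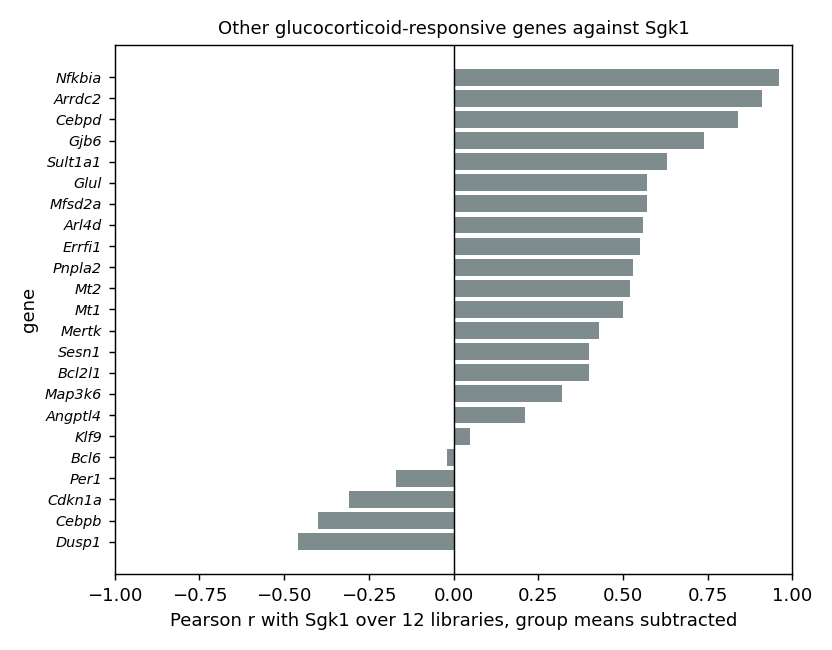
Pearson r with Sgk1 (horizontal axis) over 12 libraries after subtraction of group means, for 23 other glucocorticoid-responsive genes (vertical axis, sorted). Bars reach from 0.96 for Nfkbia to -0.46 for Dusp1, and 18 are positive.

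Genes that handle the receptors and their hormone did not pass the test either. Of 15 chaperones and co-chaperones that fold the receptors, all 15 were higher in cocaine libraries by 0.01 to 0.16, a median of 0.05, and 0 passed. Of all 16067 tested genes, 8283 were higher, with a median of 0.00. The 15 need not be independent of each other: between libraries 3 of them had a positive r with Nr3c1, and the median was -0.69. Over all tested genes, 48.9 percent were positive with Nr3c1, with a median of -0.03. Dnajb1, an Hsp70 partner, averaged 1587 ± 186 normalised reads in cocaine libraries and 1411 ± 57.6 in saline libraries (SD, n = 6 each), a log2 difference of 0.16 ± 0.08 (SE, limma adjusted p = 1). Hsp90aa1 and Chordc1 differed by 0.08 ± 0.08 each.

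Of 10 genes of steroid metabolism and transport, 8 were tested, with 4 higher and 4 lower, a median of 0.01 and 0 passing. Srd5a1, a steroid reductase, differed by -0.20 ± 0.16, H6pd by -0.20 ± 0.18 and Abcb1b, an efflux pump, by 0.15 ± 0.15. Of 20 receptor coregulators, 5 were higher and 15 lower, with a median of -0.03 and 0 passing; the coactivator Ncoa3 differed by -0.19 ± 0.11 and the acetyltransferase Crebbp by -0.12 ± 0.09. Of 23 paralogues of the 10 genes, 21 were tested, with 9 higher and 12 lower, a median of -0.01 and 0 passing; Plin2 differed by -0.28 ± 0.18, Pdk3 by 0.19 ± 0.15 and Plin3 by -0.31 ± 0.28.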

How the data were processed

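RNA was measured by sequencing in 12 prefrontal cortex libraries, 6 per group, grouped by the treatment label. Per the labels' protocols, Trizol was used for extraction and 1 µg of total RNA went into each library. The submitters' processing notes name HISAT2 2.0.5; how reads were counted, and with which strand setting, is not given in the sources used here. The authors deposited 1 table holding, per the file headers, a value per gene and library, the group means, and for the comparison a log2 fold change with its raw and adjusted p-value. The deposited values per library are a signal: 100 percent are whole multiples of the value of 1 read (tolerance 0.01 read), so they are reads divided by a library factor, not by length, and are called normalised reads. FPKM were computed here from the deposited gene length.

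Of 28842 IDs, 28805 matched GENCODE M21, 28041 of them with identical start and end, so coordinates are GRCm38. Genes with a mean of at least 10 were tested by a two-sided limma 3.58.1 fit (R 4.3.3) to log2(value + 1), with Benjamini-Hochberg adjustment over 16067 genes; this scale understates changes of low genes. The test assumed before the unit was known was kept. edgeR 4.0.16 and DESeq2 1.42.0 were run on the recovered whole reads as added checks of the same comparison, and called 0 and 3 genes. The fits were tested on simulated data. Relations over libraries used permutations within groups. Intervals cover the spread between libraries only.

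The 10 genes and the lists were chosen with earlier results of these data known. The text names the 10 genes, the 3 genes of each list with the lowest p, genes past the threshold, Dusp1, and the 3 genes most like each of the 10, leaving out predicted genes; 1 gene that the rule names is not reported here. Gapdh, the 6-gene set, Sgk1 as anchor, the genes DESeq2 called and those at the ends of the Sgk1 ranking were picked after values were seen, and so were the alternatives that leave out both libraries numbered 6 or concern marker relations. Other alternatives were pseudocounts, filters, scalings, library weights, blocks, the time tag, an oligodendrocyte covariate and leaving out each library.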

Additional observations from a re-analysis of the deposited data

Results flagged for a closer look

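Among 52 groups of 6 libraries examined for a single library far from the rest, 2 had one, where chance gives about 1 in 20. Both concern cocaine library 4. Ddit4 was at 1464 normalised reads there, with the other 5 cocaine libraries between 671 and 808. Plin4 was at 91.9 normalised reads there, with the other 5 between 39.7 and 58.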

How the results depend on the processing

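None of the 10 genes passed under any alternative run. Over all genes, DESeq2 called 3 and the other count test, edgeR, 0; the libraries tagged day 0 gave 1 call and leaving out both libraries numbered 6 gave 1, in each case Gapdh, whose values split across the labels. Genes at an unadjusted p under 0.05 numbered 240 and ranged from 140 to 715 over the settings. Directions turned as follows on the log2 scale. Among libraries tagged day 0 the differences were -0.20 for Nr3c1, -0.38 for Sgk1, -0.08 for Pdk4 and -0.00 for Ddit4; among those tagged day 5 they were 0.13 for Nr3c2, 0.16 for Zbtb16, 0.17 for Hif3a, 0.37 for Plin4, 0.12 for H6pd, -0.08 for Abcb1b, 0.01 for Ncoa3 and 0.25 for Plin3. Without both libraries numbered 6, Nr3c1 was at -0.10, Hif3a at 0.07 and Plin4 at 0.14. With the oligodendrocyte score as a covariate Hif3a was at 0.01, and with library weights Plin4 was at 0.09. Leaving out each library gave -0.08 to 0.09 for Nr3c1, -0.14 to 0.01 for Nr3c2, -0.25 to 0.20 for Sgk1, -0.43 to 0.05 for Zbtb16, -0.14 to 0.09 for Hif3a, -0.54 to 0.12 for Plin4, 0.05 to 0.25 for Tsc22d3, 0.07 to 0.32 for Pdk4, 0.00 to 0.27 for Ddit4 and -0.16 to 0.01 for the receptor balance. The 12 correlated pairs became 3 to 11 when each library was left out, 7 without both numbered 6, and 0 with the oligodendrocyte score regressed out, where Plin4 with Pdk4 was at r = -0.03. With the replicate number as a block, 0 genes were called, 17 pairs passed and the receptor balance stayed at -0.09 (exact permutation p = 0.625); same-numbered libraries share only a number, with correlations of deviations from -0.34 to 0.33 and 0 of 6 cocaine libraries closest to their own number. Scaling moved the median of all genes by at most 0.008. Hif3a and Plin4 fail a filter of a mean of 1 FPKM and give no value there. The causes of these shifts were not tested.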
